A study of Mus musculus with 64 samples.

Results

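The genes described here were the 10 immediate early transcription factor genes *Fos*, *Fosb*, *Fosl1*, *Fosl2*, *Jun*, *Junb*, *Jund*, *Egr1*, *Egr2* and *Atf3*, taken by symbol from the 55487 genes listed in the count files. They were measured by RNA sequencing in bone marrow-derived macrophages (BMMs) of mice with an intact aryl hydrocarbon receptor (Ahr+/+, female C57BL/6JRj) or without it (Ahr-/-, C57BL/6 background, crossed back to the same strain). BMMs were grown from marrow in medium conditioned by L929 fibroblasts, a source of macrophage colony-stimulating factor. They were then kept for 6 h with 0.01% DMSO, the vehicle, with 1 µM benzo[a]pyrene (BaP), a combustion product, or with 10 µM indole-3-carbinol (I3C), a plant compound. Activation followed for 3 h or 20 h with 10000000 *Salmonella enterica* Serovar Enteritidis per ml that had been killed by heat (hk S.E.), and a group without ligand of each genotype and time received no bacteria. This gave 16 groups of genotype, time, ligand and activation with 4 libraries each, 64 in all. The methods name 4 mice per genotype without tying mice to replicate numbers, so p-values measure the spread between these libraries. Mice were 8 to 12 weeks old, and cells were used once most of them carried CD11b and F4/80. Both ligands were dissolved in DMSO. The labels give the unactivated cells as without ligand and without activation. The methods do not describe these cells separately, so it is assumed here that they received vehicle like the DMSO-treated activated cells.

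AP-1 is a dimer of basic leucine zipper proteins. A Jun protein pairs with a Fos protein, with another Jun protein or with a member of the ATF family, and the dimer binds a short palindrome in promoters and enhancers. *Fos*, *Jun*, *Egr1* and their relatives are called immediate early genes because signals transcribe them without new protein synthesis, through serum response factor and CREB at their promoters. Their transcripts are short-lived, and in macrophages toll-like receptor ligands induce them through MAP kinases. ATF3 is known as a brake on toll-like receptor cytokine genes, and EGR proteins are zinc finger factors that act in the differentiation of macrophages.

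Gene counts per library lay between 12152496 and 233047331, with a median of 24499165, and the deepest library was replicate 4 of unactivated Ahr+/+ BMMs at 20 h. The next deepest held 50644601 counts. All 10 members passed the filter on low counts, as did 14537 genes in all. The 6 macrophage markers *Adgre1*, *Itgam*, *Csf1r*, *Cd68*, *Mertk* and *Fcgr1* passed too, and their summed level was 4660 to 8147 CPM (read counts relative to the TMM-scaled library size) over all libraries. Of 6 granulocyte markers 3 passed, and their sum was 3.32 to 16.1 CPM in unactivated and 31.7 to 84.2 CPM in DMSO-treated activated Ahr+/+ libraries at 3 h, against 6.59 to 10.5 and 38.0 to 45.0 CPM in Ahr-/-. *Elane*, *Mpo* and *Ly6g* were at 0 in 41, 44 and 35 libraries. None of 6 lymphocyte markers, 2 of 4 dendritic cell markers and 3 of 4 stromal markers passed, with sums of at most 0.984, 2.46 and 7.88 CPM, and 3 erythroid markers were at 0 in all libraries. The part of other cells in the results was not tested. *Ahr* itself had 1.09 to 14.9 CPM in Ahr+/+ and 5.11 to 28.1 CPM in Ahr-/- libraries. A count over the whole gene does not resolve a deleted part, so it checks nothing about the genotype labels. Sample identifiers fell into series whose meaning is not stated: all Ahr-/- libraries at 20 h had identifiers of 1 series, and all activated Ahr+/+ libraries at 20 h had those of another.

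Promoter stretches of 4 members are shown because they hold the letters at which CREB and ATF proteins or serum response factor are known to act, in the 2 members that fell most at 20 h and the 2 that rose most at 3 h. They are the 120 bases before a RefSeq start (GRCm38.p6), read 5′ to 3′ on the gene's strand: *Fos* at chr12:85473770-85473889 (+), *Junb* at chr8:84978749-84978868 (-), *Egr2* at chr10:67537446-67537565 (+), which is 1 of several starts, and *Atf3* at chr1:191183334-191183453 (-). Capitals mark the CRE half-site TGACG in either orientation, except in *Egr2*, where they mark a CArG box, the site of serum response factor.
Fos: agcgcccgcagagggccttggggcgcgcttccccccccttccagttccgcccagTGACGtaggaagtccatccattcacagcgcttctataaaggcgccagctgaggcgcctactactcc
Junb: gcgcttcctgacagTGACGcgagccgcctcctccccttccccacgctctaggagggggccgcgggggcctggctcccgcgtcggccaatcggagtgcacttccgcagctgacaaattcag
Egr2: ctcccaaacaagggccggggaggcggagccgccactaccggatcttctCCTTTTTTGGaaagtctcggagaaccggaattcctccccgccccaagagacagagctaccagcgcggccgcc
Atf3: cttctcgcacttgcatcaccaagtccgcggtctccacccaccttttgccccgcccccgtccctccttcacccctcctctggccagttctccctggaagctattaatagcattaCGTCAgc

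Over the 250 bases before the start, on both strands, 5 of the 8 members with a promoter in the RefSeq table held the half-site TGACG (*Fos*, *Fosb*, *Junb*, *Egr2* and *Atf3*), as did 19.8% of 27025 genes, each counted once over all its starts. A CArG box was found in 1 member, *Egr2*, and in 1.62% of genes. None of these 8 members held a whole CRE (TGACGTCA, which contains the half-site, in 1.77% of genes) or the AP-1 site TGANTCA (7.82%). The EGR site GCGNGGGCG was found in *Fosb* and *Fosl2* (5.33% of genes), and GCGTG, the core bound by the aryl hydrocarbon receptor, in *Fos*, *Junb* and *Atf3* (30.9%). These are matches of letters in a short window, not measured binding. *Egr1* and *Fosl1* had no promoter in the RefSeq table and were not searched. The *Jund* window ended at chr8:70697738, before the gene start at 70698949 in the annotation used here. The *Fosl2* window began at chr5:32136222, inside the gene, which starts at 32135801.

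The members differed widely in level. Per kilobase of exon, unactivated Ahr+/+ BMMs at 3 h had most *Fos* (162.3 ± 23.1 CPM per kb, SD, n = 4), then *Atf3* (115.6 ± 8.56) and *Junb* (38.5 ± 12.0). *Fosl1* (0.346 ± 0.115) and *Fosb* (0.130 ± 0.0320) were lowest. With DMSO and hk S.E. at 3 h the order was led by *Atf3* (438.5 ± 10.6 CPM per kb) and *Junb* (170.6 ± 10.1), followed by *Fos* (45.6 ± 3.58). Over the 16 groups the highest group mean exceeded the lowest 31.9-fold for *Egr2* and 30.7-fold for *Fos*, but 2.56-fold for *Jun* and 2.30-fold for *Fosl2*. When the 16 groups were ordered by mean, neighbouring groups overlapped in 12 (*Atf3*) to 15 (*Fosl1*, *Fosl2*, *Jun* and *Jund*) of 15 cases. The gaps in the *Fos* order lay below the 4 unactivated groups, of which the lowest averaged 326.9 CPM against 113.4 CPM in the next group, and between 3 h and 20 h of activation (83.6 against 33.1 CPM). *Egr2* had its gap between 3 h and 20 h of activation (10.3 against 1.27 CPM). *Junb* had it at the same place (392.6 against 214.3 CPM), with several unactivated and 20 h groups overlapping below it. *Atf3* was separated at 3 places, of which the widest parted the activated groups at 3 h from Ahr+/+ at 20 h (828.3 against 536.2 CPM).

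**Figure D1:**
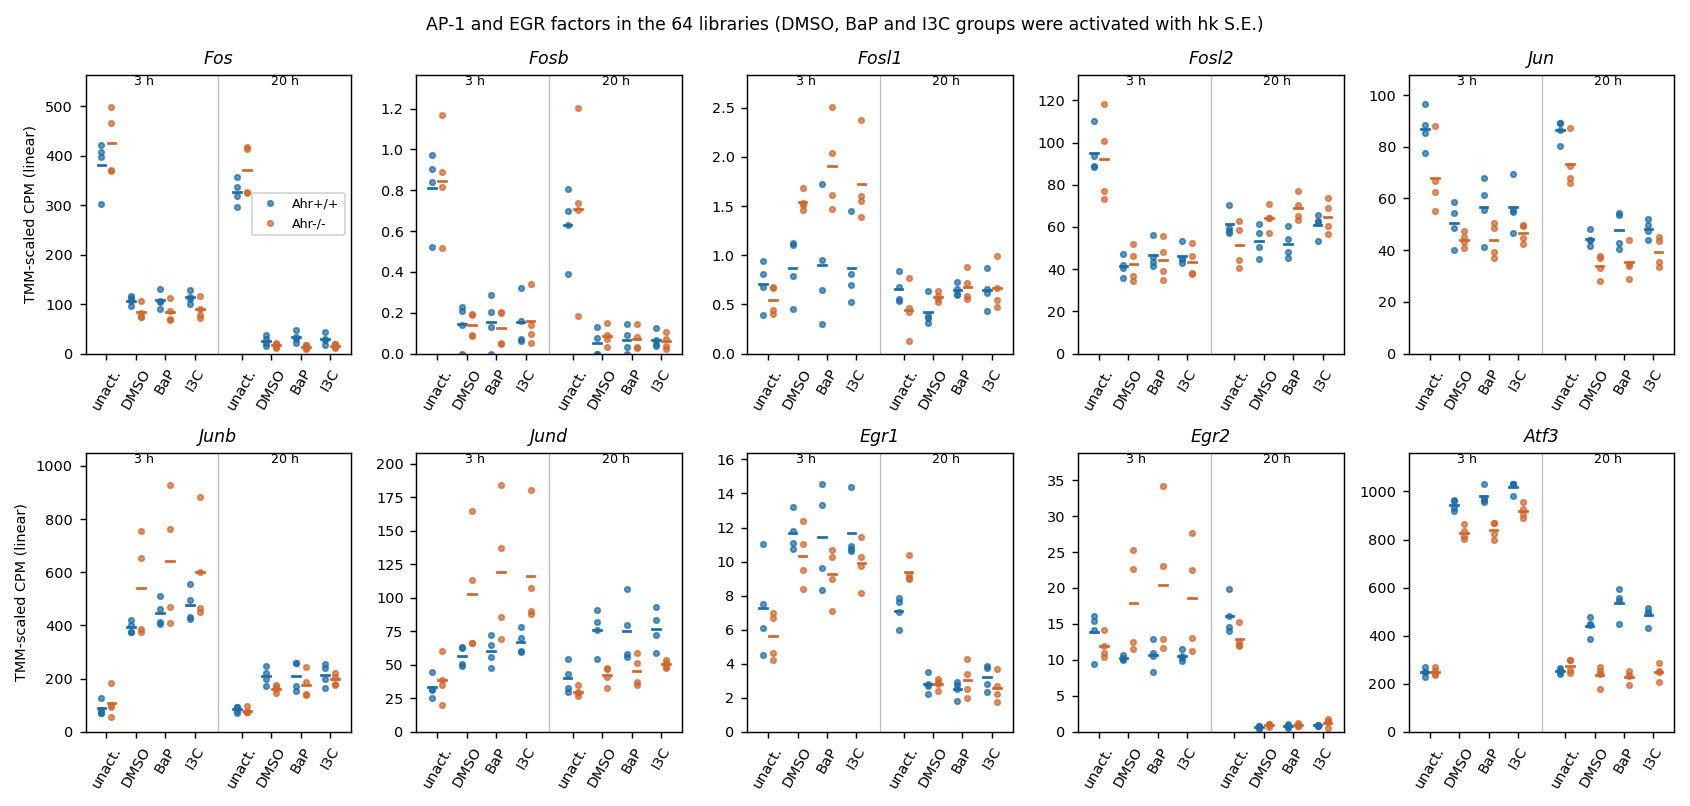
TMM-scaled CPM (linear axis, each panel with its own range) of the 10 members in every library, by the 16 groups of genotype, time, ligand and activation, where points are libraries, dashes are group means and colour is genotype. *Fos* drops in all activated groups and again from 3 h to 20 h, while *Atf3* is high at 3 h and lies lower in Ahr-/- than in Ahr+/+ groups at 20 h of activation.

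Activation with hk S.E. was examined first, as the DMSO-treated activated against the unactivated group within each genotype and time. The immediate early genes did not move together: *Fos*, *Fosb* and *Jun* fell and *Junb* rose in each of the 4 comparisons, *Atf3* rose except in Ahr-/- at 20 h, and both EGR genes were lower after 20 h. The earliest sampling was at 3 h of activation, so any change before 3 h was not measured. In Ahr+/+ at 3 h 3 members were higher and 4 lower by edgeR's quasi-likelihood test (Benjamini-Hochberg adjusted p below 0.01), where 24.2% of all genes tested were higher and 32.3% lower. At 20 h 3 were higher and 5 lower (29.9% and 28.7% of all genes). In Ahr-/- 5 were higher and 4 lower at 3 h (25.5% and 31.8%), and 1 was higher and 5 lower at 20 h (28.3% and 26.0%). The members' median log2 fold changes were -0.06, -0.82, 0.73 and -0.66 in that order of comparisons, against -0.10, -0.00, -0.08 and 0.02 over all genes. In bulk RNA, fewer cells of a type and less RNA per cell cannot be told apart.

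These values rest on TMM scaling, which weighs libraries by the bulk of their genes. Scaled to library totals, all log2 fold changes of activation shifted by -0.67 at 3 h in both genotypes, by -0.37 in Ahr+/+ and by -0.31 in Ahr-/- at 20 h, because activated libraries had lower TMM factors. The share of all called genes that were higher then went from 42.9% to 17.4% and from 51.02% to 29.4% in Ahr+/+ at 3 h and 20 h, and from 44.4% to 17.8% and 52.1% to 31.5% in Ahr-/-. Of the members' calls in these 4 comparisons none changed direction, and those lost were *Egr1* at 3 h in both genotypes, *Fosl1* and *Jund* in Ahr-/- at 3 h and *Jund* in Ahr+/+ at 20 h. Calls gained were falls of *Egr2* in Ahr+/+ at 3 h (-1.10, adjusted p = 9.83e-05), of *Fosl1* (-1.04, adjusted p = 0.00403) and *Fosl2* (-0.57, adjusted p = 0.000436) in Ahr+/+ at 20 h and of *Atf3* in Ahr-/- at 20 h (-0.53, adjusted p = 6.23e-07).

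**Figure D2:**
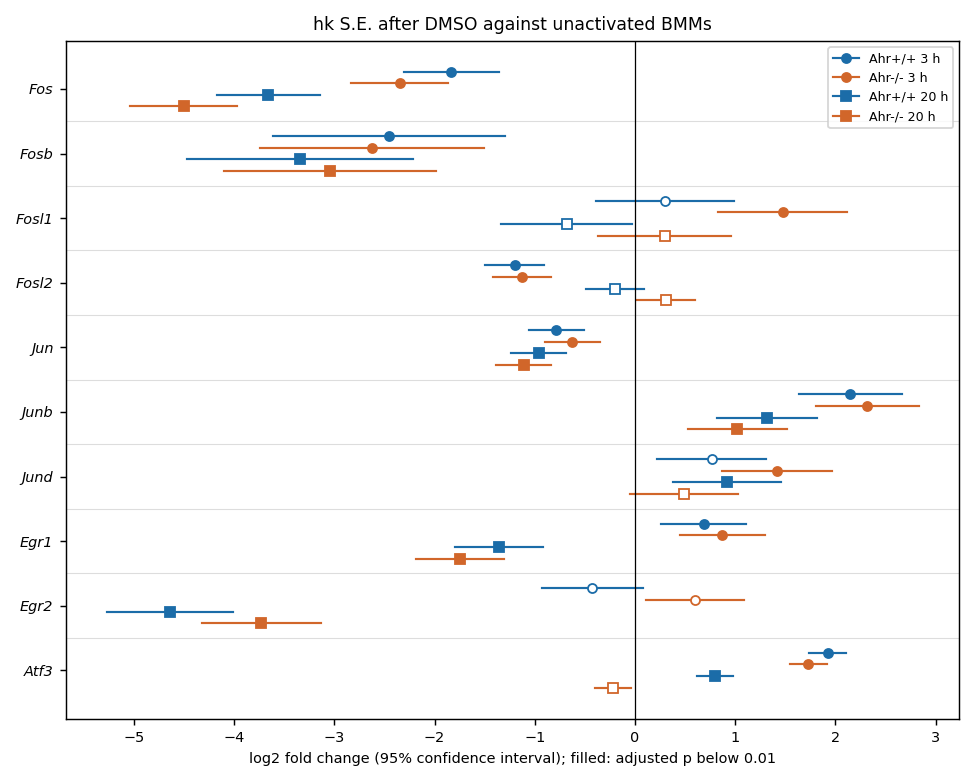
Log2 fold change (TMM scaling, edgeR) of each member between DMSO-treated activated and unactivated BMMs, with 95% confidence intervals, in both genotypes at 3 h (circles) and 20 h (squares), filled where the adjusted p was below 0.01. *Fos*, *Fosb* and *Jun* lie left of 0 and *Junb* lies right of 0 in all 4 comparisons, and *Egr1* changes side between 3 h and 20 h.

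Fos proteins do not pair among themselves and need a Jun partner to bind DNA stably. *Fos* had 301, 407, 421 and 398 CPM in unactivated Ahr+/+ libraries at 3 h and 105.4, 112, 115 and 96.2 CPM with hk S.E., a log2 fold change of -1.83 (SE 0.24, adjusted p = 1.29e-09). At 20 h the values were 297, 318, 357 and 336 CPM without and 21.9, 37.9, 28.8 and 15.2 CPM with hk S.E. (log2 fold change -3.66, SE 0.26, adjusted p = 9.73e-19), so that every activated library lay far below every unactivated one. In Ahr-/-, *Fos* went from 466, 498, 371 and 369 CPM to 107, 81.0, 73.6 and 73.7 CPM at 3 h, and from 324, 327, 417 and 413 CPM to 19.8, 21.9, 13.4 and 10.4 CPM at 20 h. The groups were again apart, with log2 fold changes of -2.35 (SE 0.24) and -4.51 (SE 0.27). The 20 h loss in Ahr-/- was a 22.7-fold fall. *Fosb*, which encodes a close relative, was near the limit of detection: summed over 4 libraries it had 84 counts unactivated and 9 activated in Ahr+/+ at 3 h, and 290 and 8 at 20 h, of which 239 of the 290 lay in the deepest library. In Ahr-/- the sums were 94 and 10 counts, and 111 and 12. It fell by 2.45, 3.34, 2.63 and 3.05 on the log2 scale (all adjusted p at most 0.000202). In Ahr+/+ at 20 h activated replicate 4 held 6 of the 8 counts, and without it the fall was 4.50.

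*Fosl1* and *Fosl2* encode FRA-1 and FRA-2, Fos proteins without the transactivation domain of FOS. *Fosl1* was sparse, at 0.390 to 0.937 CPM without and 0.453 to 1.12 CPM with hk S.E. in Ahr+/+ at 3 h, and these groups overlapped (log2 fold change 0.30, 95% interval -0.39 to 0.99). In Ahr-/- at 3 h it had 0.443, 0.677, 0.669 and 0.407 CPM without and 1.68, 1.51, 1.46 and 1.53 CPM with hk S.E. The change of 1.47 (SE 0.32, adjusted p = 6.52e-05) passed the threshold, and all activated values were above all unactivated ones. Scaled to library totals it was 0.80 (adjusted p = 0.0207). At 20 h its log2 fold changes of -0.68 in Ahr+/+ and 0.30 in Ahr-/- did not pass. *Fosl2* had 93.7, 110, 88.2 and 88.9 CPM unactivated and 42.0, 47.1, 40.6 and 35.8 CPM activated in Ahr+/+ at 3 h (log2 fold change -1.20, SE 0.15, adjusted p = 2.26e-10). In Ahr-/- it went from 118, 101, 77.1 and 73.4 CPM to 46.2, 51.7, 36.9 and 34.2 CPM (-1.13, SE 0.15). At 20 h the groups overlapped in Ahr+/+, at 57.1 to 70.4 CPM without and 44.9 to 61.3 CPM with hk S.E., and the log2 fold changes of -0.20 in Ahr+/+ and 0.31 in Ahr-/- (adjusted p = 0.0555) did not pass. 

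Of the Jun proteins, which can pair among themselves, JUN is the stronger activator and JUNB and JUND are known to restrain it in many settings. *Jun* had 85.3, 77.6, 96.5 and 88.5 CPM unactivated and 54.4, 58.6, 40.1 and 48.8 CPM activated in Ahr+/+ at 3 h, with no overlap (log2 fold change -0.78, SE 0.14, adjusted p = 1.49e-06). It fell by 0.96 at 20 h and, in Ahr-/-, by 0.63 and 1.11. *Junb* moved the other way. It had 72.1, 70.6, 129 and 82.4 CPM unactivated and 374, 422, 374 and 401 CPM activated in Ahr+/+ at 3 h (log2 fold change 2.15, SE 0.26, adjusted p = 1.24e-10). At 20 h it had 92.9, 94.6, 70.0005 and 80.0 CPM against 248, 223, 173 and 198 CPM (1.32, SE 0.25, adjusted p = 6.20e-06), again without overlap. In Ahr-/- it rose from 55.2, 184, 94.8 and 101 CPM to 655, 754, 387 and 374 CPM at 3 h, a wide spread with replicates 1 and 2 highest among the activated libraries, and from 75.1, 97.7, 73.3 and 74.6 CPM to 161, 175, 169 and 146 CPM at 20 h. Its log2 fold changes there were 2.32 (SE 0.26) and 1.02 (SE 0.25).

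*Jund*, the most steadily expressed of the 3 in many tissues, had 25.4 to 44.9 CPM unactivated and 48.8 to 63.3 CPM activated in Ahr+/+ at 3 h. The groups did not overlap, yet the log2 fold change of 0.76 (SE 0.27, adjusted p = 0.0125) missed the threshold. It passed with DESeq2 (0.82, adjusted p = 0.00429), limma (0.79, adjusted p = 0.00558), median-of-ratios size factors, only the groups compared, GC slope as a term and the replicate block. It also passed without activated replicate 1 (0.86, adjusted p = 0.00817) or 2 (0.88, adjusted p = 0.00733) or unactivated replicate 3 (0.94, adjusted p = 0.00491), and was 0.09 with library totals. At 20 h *Jund* passed, with 54.3, 43.5, 29.9 and 32.9 CPM against 91.0, 82.1, 54.4 and 75.9 CPM (0.92, SE 0.27, adjusted p = 0.00231). That call was lost without replicate 1 of the activated libraries (0.82, adjusted p = 0.0109), without replicate 3 (0.80, 0.0141) or 4 (0.83, 0.0122) of the unactivated ones, with library totals (0.54, adjusted p = 0.0684) and with identifier series as a term (0.84, adjusted p = 0.0224). In Ahr-/- at 3 h *Jund* went from 19.9, 60.1, 38.4 and 35.1 CPM to 113, 165, 66.2 and 66.0 CPM (1.42, SE 0.27, adjusted p = 8.73e-06), or 0.76 with library totals (adjusted p = 0.0105). At 20 h the change of 0.49 (adjusted p = 0.111) did not pass.

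Both EGR factors were lower after 20 h of hk S.E., and with TMM scaling *Egr1* was higher at 3 h. *Egr1* had 6.09, 7.53, 4.49 and 11.004 CPM in unactivated and 11.8, 13.2, 11.1 and 10.7 CPM in activated Ahr+/+ libraries at 3 h, so 1 unactivated library reached into the activated group. The log2 fold change of 0.68 (SE 0.21, adjusted p = 0.00400) was lost without unactivated replicate 1 (0.61, adjusted p = 0.0185) or 3 (0.52, adjusted p = 0.0359), and was 0.01 with library totals (adjusted p = 0.953). In Ahr-/- at 3 h the values were 6.72, 6.96, 4.23 and 4.65 CPM against 11.03, 12.4, 9.48 and 8.37 CPM (0.87, SE 0.21, adjusted p = 0.000301; with library totals 0.20, adjusted p = 0.365). At 20 h *Egr1* was low in every activated library, at 2.70, 3.51, 2.83 and 2.194 CPM in Ahr+/+ and 2.91, 3.11, 2.83 and 2.41 CPM in Ahr-/-, against 5.97 to 7.84 CPM and 8.98 to 10.4 CPM without hk S.E. These were log2 fold changes of -1.36 (SE 0.22) and -1.75 (SE 0.22), with adjusted p of 2.65e-07 and 5.48e-10.

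The largest fall of the 10 members in Ahr+/+ was that of *Egr2*, at 20 h. In Ahr+/+ at 3 h it had 9.45, 15.4, 14.2 and 16.2 CPM unactivated and 10.3, 10.2, 10.7 and 9.96 CPM activated, and the groups overlapped (log2 fold change -0.43, adjusted p = 0.132). At 20 h it had 14.1, 14.5, 19.8 and 16.04 CPM unactivated and 0.764, 0.336, 0.849 and 0.618 CPM activated, a 25.0-fold fall (log2 fold change -4.64, SE 0.32, adjusted p = 3.09e-19) that rested on 82 activated counts in all. In Ahr-/- at 3 h activated replicates 1 and 2 stood high, at 22.6 and 25.3 CPM, and replicates 3 and 4 had 12.4 and 11.6 CPM, against 10.5 to 14.1 CPM unactivated (0.60, adjusted p = 0.0292). This passed with GC slope as a term (0.54, adjusted p = 0.00774) and without activated replicate 4 (0.76, adjusted p = 0.00840). At 20 h *Egr2* fell from 15.3, 11.9, 12.5 and 12.1 CPM to 1.076, 1.09, 0.699 and 1.01 CPM there (-3.73, SE 0.30, adjusted p = 1.61e-16).

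*Atf3* encodes a factor of the ATF and CREB family that represses many inflammatory genes as a homodimer and pairs with Jun proteins. It had 247, 227, 272 and 251 CPM in unactivated and 962, 965, 919 and 931 CPM in activated Ahr+/+ libraries at 3 h, with no overlap (log2 fold change 1.92, SE 0.09, adjusted p = 1.14e-25). At 20 h it had 255, 242, 249 and 266 CPM against 479, 444, 385 and 448 CPM (0.79, SE 0.09, adjusted p = 2.41e-11). In Ahr-/- at 3 h it had 241, 269, 237 and 253 CPM unactivated and 863, 800, 836 and 813 CPM activated (1.73, SE 0.09, adjusted p = 9.05e-24). At 20 h these libraries had 297, 298, 243 and 258 CPM unactivated and 255, 178, 268 and 240 CPM activated. These groups overlapped, and the log2 fold change of -0.22 (95% interval -0.40 to -0.04, adjusted p = 0.0289) missed the threshold. It passed as a fall under DESeq2 (-0.26, adjusted p = 0.00649), limma on the VST values (-0.27, adjusted p = 0.00685), median-of-ratios size factors (-0.26, adjusted p = 0.00943) and library totals (-0.53), and without activated replicate 3 (-0.29, adjusted p = 0.00726).

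With the Fos and Jun genes moving apart, the makeup of each family was computed as each gene's share of the family's summed CPM per kb, 28 shares in 4 comparisons, each tested by a two-sided exact permutation test of 4 against 4 libraries, which cannot go below p = 0.0286. In all, 21 shares passed after adjustment over the 28 (adjusted p = 0.0381 for each of the 21). *Fos* made up 95.4% ± 0.27 (SD, n = 4) of the Fos family in unactivated and 64.6% ± 5.72 in activated Ahr+/+ BMMs at 20 h, and 96.5% ± 0.32 and 49.2% ± 7.54 in Ahr-/-. *Fosl2* went from 4.34% to 34.1% and from 3.25% to 48.6%. The summed Fos family fell from 145.8 ± 11.4 to 16.8 ± 4.92 CPM per kb in Ahr+/+ at 20 h, and *Fosl2* itself did not pass the test there with TMM scaling (-0.20) but fell with library totals (-0.57). At 3 h *Fos* still held 90.6% in Ahr+/+ and 87.3% in Ahr-/- with hk S.E.

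Within the Jun family *Junb* went from 44.4% ± 3.72 to 77.5% ± 1.36 in Ahr+/+ at 3 h and from 41.8% ± 1.41 to 60.7% ± 1.23 at 20 h. The corresponding shares in Ahr-/- were 50.3% and 75.9%, and 45.9% and 66.4%. *Jun* dropped from 32.5% to 7.18% at 3 h and from 31.2% to 9.33% at 20 h in Ahr+/+. The share of *Jund* passed only in Ahr+/+ at 3 h, where it went from 23.1% to 15.4%. The Jun family as a whole rose from 85.7 ± 19.0 to 220.1 ± 10.2 CPM per kb in Ahr+/+ at 3 h, while the Fos family fell from 172.6 ± 23.3 to 50.3 ± 4.05. These are transcript shares, and protein was not measured here.

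**Figure D3:**
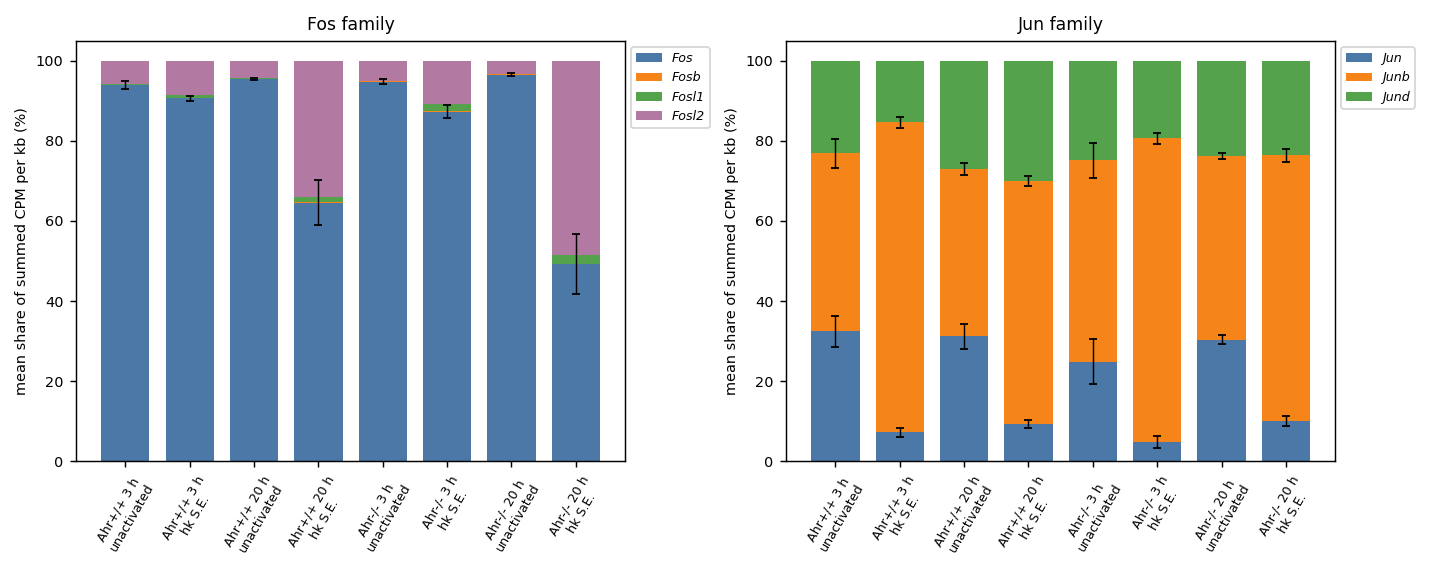
Share (percent of summed CPM per kb, mean of 4 libraries) of each gene in the Fos family and the Jun family, in unactivated and DMSO-treated activated BMMs by genotype and time, with error bars of 1 SD on the shares of *Fos*, *Jun* and *Junb*, each at the top of its segment. *Fosl2* reaches 34.1% and *Fos* drops to 64.6% of the Fos family in activated Ahr+/+ BMMs at 20 h, and *Junb* reaches 77.5% of the Jun family at 3 h.

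Next, 20 h was compared with 3 h. Among unactivated cells only *Fosl2* passed, with a log2 fold change of -0.64 in Ahr+/+ (SE 0.14, adjusted p = 0.00131) and -0.84 in Ahr-/- (SE 0.14, adjusted p = 2.49e-05), where 6.07% and 6.98% of all genes were called. The Ahr+/+ call was lost without unactivated replicate 2 at 3 h (-0.56, adjusted p = 0.0112) and with identifier series as a term (-0.57, adjusted p = 0.0133), and the Ahr-/- call with only the groups compared (-0.85, adjusted p = 0.0377). Among DMSO-treated activated cells 6 members were lower at 20 h in Ahr+/+ and none was higher by edgeR, where 26.4% of all genes were lower and 33.0% higher. In Ahr-/- 7 were lower and 1 higher (24.3% and 31.7%). These Ahr-/- libraries had identifiers of 1 series at 3 h and of another at 20 h, so time and identifier series cannot be told apart among them. A term for series rests there on unactivated libraries of other groups. *Egr2* fell by 3.99 and 4.20, *Egr1* by 2.07 and 1.88, *Fos* by 2.05 and 2.36, *Atf3* by 1.11 and 1.82 and *Junb* by 0.90 and 1.74 on the log2 scale, in Ahr+/+ and Ahr-/-. *Fosl1* fell by 1.03 and 1.41, and its Ahr+/+ call (adjusted p = 0.00891) was lost on leaving out any of 5 libraries, activated replicates 1 and 3 at 3 h or 1, 3 and 4 at 20 h (adjusted p up to 0.0291). It was also lost with no filter (adjusted p = 0.0201), only the groups compared (adjusted p = 0.0146), limma (adjusted p = 0.0113) and identifier series as a term (adjusted p = 0.0355). *Jund* was lower (-1.29) and *Fosl2* higher (0.60) in Ahr-/- and did not pass in Ahr+/+ (0.43 and 0.37), and whether these changes differed between genotypes was not tested. With identifier series as a term, *Jund* (-1.03, adjusted p = 0.0166), *Fosl2* (0.42, adjusted p = 0.0593) and *Fosl1* (-1.21, adjusted p = 0.0171) missed the threshold in Ahr-/-, while *Fosl2* passed in Ahr+/+ (0.46, adjusted p = 0.00851). *Fosl2* in Ahr+/+ also passed with the replicate block (adjusted p = 0.00562) and with library totals. *Jun* in Ahr-/- (-0.38, adjusted p = 0.0143) passed with the replicate number as a block (adjusted p = 0.000944), and the numbers paired these libraries. It passed too with DESeq2 (-0.48, adjusted p = 0.00147), limma (-0.45, adjusted p = 0.00223), median-of-ratios size factors, only the groups compared and GC slope as a term, and without activated replicate 1 at 20 h (-0.43, adjusted p = 0.0099969).

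With library totals the median of all genes in this contrast rose by 0.33 in Ahr+/+ and 0.37 in Ahr-/-, and the share of calls that were higher went from 55.5% to 70.6% and from 56.6% to 73.9%. *Fosl1* (-0.71, adjusted p = 0.0704) and *Junb* (-0.57, adjusted p = 0.0337) in Ahr+/+ then missed the threshold, and *Fosl2* in Ahr+/+ passed (0.70 against 0.37 with TMM scaling, adjusted p = 2.82e-05).

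The effect of activation itself differed between 20 h and 3 h for 5 members in Ahr+/+, 1 with a more positive and 4 with a more negative change (26.5% and 21.3% of all genes). In Ahr-/- these were 1 and 5 (25.2% and 19.4%). The differences in log2 fold change, 20 h minus 3 h, were -4.21 and -4.33 for *Egr2*, -2.04 and -2.62 for *Egr1*, -1.83 and -2.16 for *Fos* and -1.13 and -1.95 for *Atf3*. *Fosl2* went the other way, with 1.00 and 1.44. *Junb* passed in Ahr-/- (-1.30, SE 0.35) and not in Ahr+/+ (-0.83), and missed the threshold there with library totals (-0.94, adjusted p = 0.0164) and only the groups compared (-1.35, adjusted p = 0.0102). In Ahr+/+ it passed with only the groups compared (-0.86, adjusted p = 0.00175), GC slope as a term (-0.85, adjusted p = 0.000721) and without unactivated replicate 3 at 3 h (-1.07, adjusted p = 0.00850). *Jun* in Ahr-/- (-0.48) passed with DESeq2, median-of-ratios size factors, limma, GC slope as a term and the replicate block (adjusted p from 0.00116 to 0.00818). Leaving out unactivated Ahr-/- replicate 2 at 3 h added *Jun* (-0.63, adjusted p = 0.00436) and *Jund* (-1.23, adjusted p = 0.00547) there, and leaving out unactivated Ahr-/- replicate 2 at 20 h added *Fosl1* (-1.38, adjusted p = 0.00785). The share of more positive calls over all genes went from 55.4% to 70.6% in Ahr+/+ and from 56.5% to 74.3% in Ahr-/- with library totals.

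Ahr-/- was then compared with Ahr+/+ under the same treatment. Of the 40 tests of members, 1 passed: *Atf3* was lower in Ahr-/- after 20 h with DMSO and hk S.E. In unactivated cells edgeR called 0 members at 3 h (1 at an unadjusted p under 0.05, *Jun*) and 0 at 20 h (0 at an unadjusted p under 0.05), where it called 1.21% and 0.702% of all genes. At 3 h with hk S.E. it called 0 (4 at an unadjusted p under 0.05; 2.83% of all genes). DESeq2 and limma also called 0 in these 3. The members nearest to the threshold at 3 h with hk S.E. were *Jund* (0.87, adjusted p = 0.0416) and *Egr2* (0.81, adjusted p = 0.0417), both with replicates 1 and 2 of Ahr-/- far above replicates 3 and 4. At 20 h with hk S.E. edgeR called 1 member and 12.5% of all genes, and DESeq2 added *Jund* (-0.87, adjusted p = 0.00836).

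*Atf3* had 479, 444, 385 and 448 CPM in Ahr+/+ and 255, 178, 268 and 240 CPM in Ahr-/- libraries at 20 h with DMSO and hk S.E., with no overlap. The log2 fold change was -0.90 (SE 0.09, 95% interval -1.08 to -0.72, adjusted p = 6.59e-11), a 1.87-fold lower level in Ahr-/-. Over the BaP and I3C groups as well, the 12 activated Ahr+/+ libraries at 20 h lay between 385 and 594 CPM and the 12 Ahr-/- libraries between 178 and 287 CPM. At 3 h the same ranges were 919 to 1032 and 800 to 956 CPM, and they overlapped when the treatments were pooled. Within each treatment they did not overlap at 3 h, with Ahr-/- the lower. Ahr-/- had 800 to 863 against 919 to 965 CPM with DMSO, 800 to 870 against 954 to 1031 CPM with BaP and 891 to 956 against 979 to 1032 CPM with I3C. The log2 fold change with DMSO at 3 h was -0.19 and did not pass by edgeR (adjusted p = 0.228). Without hk S.E. the groups at 20 h differed by 0.11 on the log2 scale (95% interval -0.06 to 0.29). The effect of activation at 20 h differed between the genotypes by -1.01 (SE 0.13, adjusted p = 4.83e-07), and *Atf3* was the 1 member called there, with 4.41% of all genes. In that contrast 47.3% of all called genes were more positive in Ahr-/-, and 62.4% with library totals. At 3 h 0 members differed in this way by edgeR (2 at an unadjusted p under 0.05, *Fosl1* and *Egr2*), and 0 by DESeq2 and limma, where 0.0138% of all genes were called. Genotype and identifier series cannot be told apart among the activated libraries at 20 h alone. With identifier series as a term, estimated from the other libraries of those series, the *Atf3* difference at 20 h with hk S.E. was -0.83 (adjusted p = 5.67e-06) and the difference in the effect of activation was -0.97 (adjusted p = 6.31e-06). Apart from Ahr-/- at 20 h, the series of those Ahr-/- libraries held only unactivated libraries. The term therefore cannot separate genotype from series among the activated libraries at 20 h. Unactivated Ahr+/+ libraries at 20 h spanned 3 identifier series, with *Atf3* at 249 and 266 CPM in 1 of them and at 242 and 255 CPM in the others, which held 1 library each. An effect of series on *Atf3* was not tested, and no activated group at 20 h held more than 1 series.

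**Figure D4:**
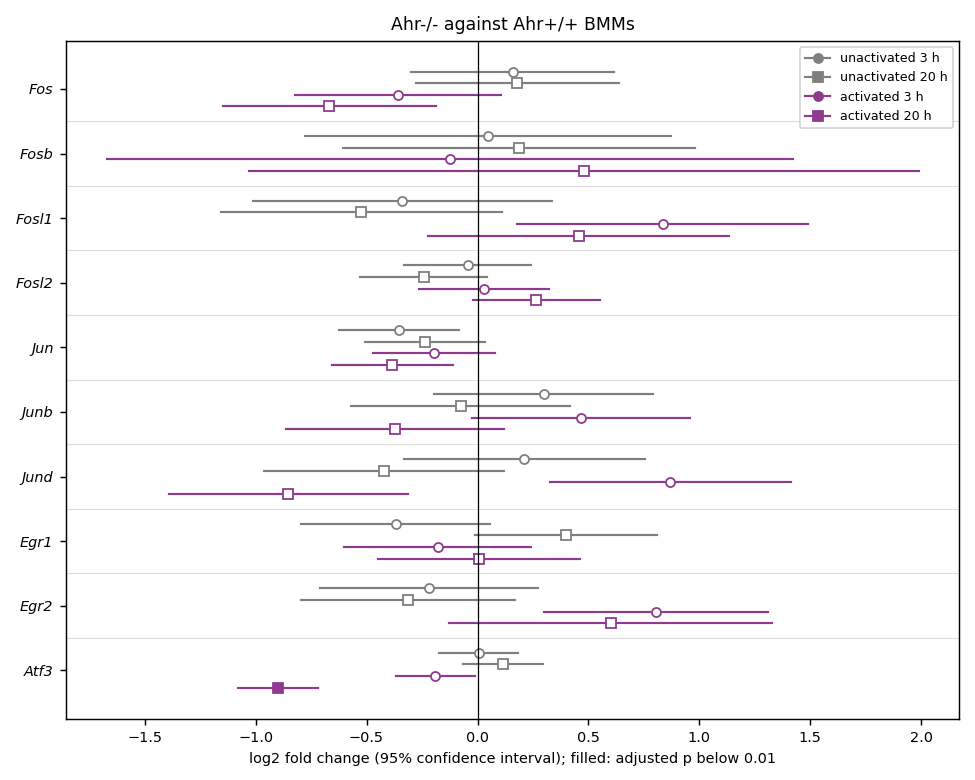
Log2 fold change (edgeR, 95% confidence intervals) of Ahr-/- against Ahr+/+ BMMs for each member, unactivated and DMSO-treated activated at 3 h and 20 h, filled where the adjusted p was below 0.01. The 1 filled point is *Atf3* at 20 h of activation, with an interval of -1.08 to -0.72, and some open points have unadjusted intervals that leave out 0.

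Both ligands of the receptor were compared with DMSO in activated cells. None of the 80 tests of members passed by edgeR (1 at an unadjusted p under 0.05, smallest adjusted p = 0.125), and none by DESeq2 or limma. None passed under the other alternatives at this threshold, but the smallest adjusted p depended on the model. It was 0.0263 by edgeR with the replicate block and 0.0267 with GC slope as a term. The calls over all genes in the main edgeR fit were also few, at 0.0482% and 0.234% for BaP and 0.131% and 0.509% for I3C in Ahr+/+ at 3 h and 20 h, and 0.0275% and 0.0138% for BaP and 0.0206% and 0.206% for I3C in Ahr-/-. The 1 member at an unadjusted p under 0.05 in that fit was *Atf3* with BaP in Ahr+/+ at 20 h, with a log2 fold change of 0.29 (95% interval 0.11 to 0.47). Log2 fold changes spanned -0.61 to 0.61 over all members, and -0.24 to 0.49 over the 8 members other than *Fosb* and *Fosl1*, whose standard errors ran from 0.0890 to 0.382, so the size of change that could be detected differed between members. The widest of their 95% intervals reached from -0.72 to 1.25.

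BaP and I3C were compared directly in Ahr+/+, each at its own dose and so not at matched doses. None of 20 tests of members passed by edgeR (0 at an unadjusted p under 0.05), DESeq2 or limma, where 0.110% and 0.282% of all genes were called at 3 h and 20 h. The ligand effects did not differ detectably between genotypes for any member (0 of 40 tests by edgeR, 1 at an unadjusted p under 0.05, and 0 by DESeq2 and limma), with 0.0138% of all genes called for BaP at 3 h and 0% in the other 3 contrasts.

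Library by library, *Junb* and *Jund* deviated from their group means together. The GC slope of a library is the dependence of its counts on transcript GC content, taken relative to the mean of its group. Libraries of Ahr-/- fell into 2 clusters by it (above or below 0, from -3.02 to 4.04, against -1.75 to 2.49 in Ahr+/+). Replicates 1 and 2 of each Ahr-/- group lay above 0 and replicates 3 and 4 below, except that unactivated replicate 1 at 3 h lay below. So relations are given within 3 clusters, Ahr+/+ and both clusters of Ahr-/-. Deviations and GC slopes were still taken from the mean of all 4 libraries of a group. A difference between the Ahr-/- clusters within a group therefore stays in these values and can enter r in either cluster. All 45 pairs of members and the 10 members with the GC slope were tested in each, 165 relations, by permutation of the libraries (100000 draws, adjusted over the 165). In 9 of the 165 both Pearson's r and Spearman's rho passed at an adjusted p below 0.05, and *Junb* with *Jund* was the 1 pair that did so in all 3 clusters. Its r was 0.77 in 32 Ahr+/+ libraries (rho 0.72), 0.93 (0.94) in 15 and 0.97 (0.96) in 17 Ahr-/- libraries. The adjusted p was 0.00055 for r in each cluster, where the permutation p of 1e-05 is the smallest that the permutations can give. Without the 2 farthest libraries r was 0.76, 0.94 and 0.95. The permutations took libraries as independent, while the methods name 4 mice per genotype and same-numbered Ahr-/- libraries correlated up to 0.643. The permutation p-values of the 165 relations can therefore overstate the evidence. Deviations in a group also sum to 0, so within a group the sum over 1 Ahr-/- cluster is the opposite of the sum over the other. Results in the 2 Ahr-/- clusters are thus not separate evidence for a pair.

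*Junb* and *Jund* have transcripts of 62.6% and 67.1% GC, above 99.0% and 99.9% of genes tested. With the GC slope, *Junb* had r of 0.52, 0.81 and 0.56 in the 3 clusters, in that order (permutation p = 0.00221, 0.00025 and 0.0198, adjusted p = 0.0304, 0.00589 and 0.149) and rho of 0.37, 0.73 and 0.53 (adjusted p = 0.274, 0.0409 and 0.221). For *Jund* r was 0.46, 0.66 and 0.49 (adjusted p = 0.0854, 0.0829 and 0.241), which did not pass. *Jun*, at 55.5% GC, had r of 0.20, 0.85 and 0.59 (permutation p = 0.279, 0.00015 and 0.0116, adjusted p = 0.598, 0.00413 and 0.113) and rho of 0.18, 0.76 and 0.69 (adjusted p = 0.723, 0.0237 and 0.0409). So both coefficients passed for *Junb* and *Jun* in the Ahr-/- libraries with a GC slope above 0, and for no member in the other 2 clusters. In Ahr+/+ the r of *Junb* was 0.26 without the 2 farthest libraries, so that relation rested on them. The part of GC content in the relation of *Junb* and *Jund* was not tested within clusters.

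The other pairs in which both coefficients passed were all in Ahr+/+. They were *Jun* with *Junb* (r = 0.67, rho = 0.79, adjusted p = 0.00124 and 0.00055), *Junb* with *Atf3* (0.66 and 0.55, adjusted p = 0.00132 and 0.0237), *Fos* with *Fosl2* (0.57 and 0.56, adjusted p = 0.0126 and 0.0237) and *Jun* with *Atf3* (0.54 and 0.58, adjusted p = 0.0279 and 0.0172). Without the 2 farthest libraries their r was 0.71, 0.59, 0.46 and 0.59. In the Ahr-/- clusters *Jun* with *Junb* had r of 0.63 and 0.53 (adjusted p = 0.113 and 0.189) and rho of 0.43 and 0.46, and *Fos* with *Fosl2* had r of 0.33 and 0.59 (adjusted p = 0.516 and 0.123) and rho of -0.04 and 0.17. *Junb* with *Atf3* had r of 0.26 and 0.32 there, and *Jun* with *Atf3* 0.25 and 0.16. Whether these relations differed between the genotypes was not tested.

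**Figure D5:**
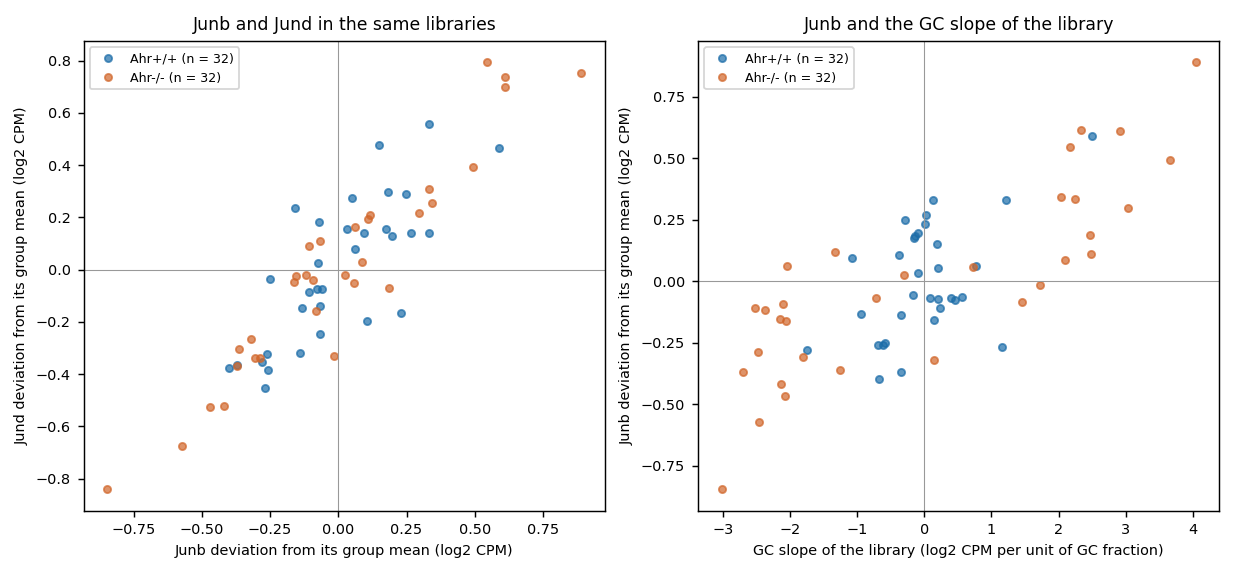
Left, deviation of log2 CPM from the group mean for *Jund* (vertical) against *Junb* (horizontal) in all 64 libraries, coloured by genotype. Right, the deviation of *Junb* against the GC slope of the library relative to its group mean (log2 CPM per unit of GC fraction). Libraries with more *Junb* than their group have more *Jund*, with r of 0.77 in Ahr+/+ libraries, and Ahr-/- libraries lie mostly at either end of the GC slope.

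Genes around the members were taken from lists, to be read against the shares of all genes called: 24.2% higher and 32.3% lower at 3 h and 29.9% and 28.7% at 20 h in Ahr+/+, and 25.5% and 31.8%, and 28.3% and 26.0%, in Ahr-/-. Of 13 other leucine zipper partners 5 rose and 2 fell in Ahr+/+ at 3 h and 8 rose and 3 fell at 20 h, and in Ahr-/- 5 and 1, and 9 and 3. *Batf2*, an interferon-induced partner of Jun proteins, had log2 fold changes of 5.63 (SE 0.22) at 3 h and 3.35 at 20 h in Ahr+/+, and *Jdp2*, a repressor that pairs with Jun, 4.04 (SE 0.22) and 2.31. *Mafg*, a small Maf protein gene, fell by 0.41 at 3 h and rose by 1.14 at 20 h in Ahr+/+. Of 3 tested EGR relatives and NAB corepressors 1 rose and 1 fell at 3 h and 1 rose and 2 fell at 20 h in Ahr+/+, and 1 rose and 1 fell at both times in Ahr-/-. *Egr3* fell by 2.48 (SE 0.47) at 3 h and 2.38 at 20 h in Ahr+/+, and *Nab1*, a corepressor of EGR factors, rose by 0.97.

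Of 16 genes of the MAP kinase cascade, 8 rose and 1 fell in both genotypes at 3 h, and 7 rose and 4 fell in Ahr+/+ and 6 and 3 in Ahr-/- at 20 h. *Map3k8*, the kinase that links toll-like receptors to ERK, rose by 3.38 (SE 0.11) at 3 h and 0.66 at 20 h in Ahr+/+, and *Map2k4* rose by 1.58 and *Map2k6* fell by 1.59 at 3 h. Of 9 genes for serum response factor, its cofactors and CREB proteins, 1 rose and 4 fell at 3 h and 1 rose and 0 fell at 20 h in Ahr+/+, and 0 and 3, and 1 and 1, in Ahr-/-. The cofactors *Mrtfb* and *Mrtfa* fell by 1.70 and 1.47 at 3 h, and *Crem* rose by 0.60. Of 16 other immediate early genes 8 rose and 4 fell at both times in Ahr+/+, and 9 and 3, and 6 and 6, in Ahr-/-. *Gadd45b*, a stress sensor, rose by 4.50 (SE 0.23) and 4.63, and the nuclear receptor gene *Nr4a3* rose by 4.07 at 3 h while its relative *Nr4a1* fell by 3.14 and *Klf10* by 2.50.

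Median log2 fold changes in Ahr+/+ at 3 h were 0.32 for the leucine zipper partners, -0.21 for the EGR relatives, 0.31 for the MAP kinases, -0.37 for the serum response factor and CREB list and 0.59 for the other immediate early genes, against -0.10 over all genes.

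Among all genes tested, those whose log2 CPM followed a member most closely over the 16 group means were listed, as a description of shared patterns. For *Fos* they were *Ap1s2*, *Fam198b* and *Chst3* (r of 0.993 to 0.992), for *Fosb* *Herc3*, *Npas4* and *P2ry1* (0.990 to 0.987), for *Fosl1* *Prrc2b*, *2700081O15Rik* and *Rhof* (0.921 to 0.914) and for *Fosl2* *Vps33a*, *Knop1* and *Hectd4* (0.924 to 0.902). For *Jun* they were *Itpr3*, *Angptl2* and *Hip1* (0.973 to 0.963), for *Junb* *Vps37c*, *Lrp10* and *Znrf1* (0.998 to 0.995) and for *Jund* *Trpc4ap*, *Sf1* and *Tjap1* (0.967 to 0.940). For *Egr1* they were *Mthfs*, *S100a11* and *Anxa3* (0.990 to 0.983), for *Egr2* *C5ar1*, *Map2k3* and *Zkscan17* (0.996 to 0.994) and for *Atf3* *Trim25*, the pseudogene *Ifi203-ps* and *Aftph* (0.995 to 0.993). Among the members, the closest pairs were *Egr1* and *Egr2* (0.93), *Fos* and *Jun* (0.90), *Fos* and *Fosb* (0.90) and *Junb* and *Atf3* (0.90), and *Fosl2* ran most opposite to *Atf3* (-0.82).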

How the data were processed

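The 64 libraries were made by the authors with a stranded poly(A) kit and sequenced on 1 HiSeq flow cell (bcl2fastq 2.19.0.316). Reads were trimmed with AdapterRemoval, aligned to mm10 with HISAT2 2.1.0 and counted per GENCODE gene with HTSeq 0.9.1, by strand and in the intersection-strict mode, so antisense neighbours share no reads with a member, and 12.4% to 15.8% of reads per library were left out as not uniquely aligned. The deposited files hold raw gene counts per library (64 columns, all mapped to samples by name). A second table deposited by the authors holds log2-like variance-stabilised (VST) values from DESeq2 for 14549 genes, all 10 members among them, used only as an alternative. Gene symbols, positions and exon lengths came from GENCODE M21 (GRCm38) for 55394 of 55487 genes, and 5 tally entries that name no gene were left out.

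Counts were fitted with edgeR 4.0.16 (R 4.3.3): TMM scaling, the 16 group means over all 64 libraries, a minimum count of 10 (14537 genes tested), the quasi-likelihood test (48 residual and 5.06 prior degrees of freedom) and Benjamini-Hochberg adjusted p below 0.01. Log2 CPM used a prior count of 2. The fit was tested on simulated data for activation of Ahr+/+ at 3 h over 14537 genes: of 200 changed genes it recovered 70 of 100 changed 2-fold and 29 of 100 changed 1.5-fold, with 1 false call. Only these 200 genes were changed, in equal numbers up and down. The simulation therefore does not test TMM scaling where as many genes change as with hk S.E. Standard errors and intervals come from the spread between libraries as fitted. The members and gene lists were chosen with earlier results of these data known. The text names all members, for each member the 3 genes of closest pattern over the group means, and from each list at most the 2 highest and 2 lowest genes that passed in Ahr+/+ at 3 h, of which 1 is not reported here. Same-numbered replicates were checked for shared deviations from their group means: with a correlation above 0.1 in all 4 pairs the numbers were taken to pair the libraries, which held for activation of Ahr-/- at 20 h, Ahr-/- activated at 20 h against 3 h, each ligand in Ahr-/-, I3C in Ahr+/+ at 20 h and BaP against I3C at 20 h, and not elsewhere. Alternatives were DESeq2 1.42.0, limma 3.58.1 on the VST values, median-of-ratios size factors, no filter, a minimum count of 50, only the groups compared, a replicate block, identifier series as a term, a threshold of 0.05 and leaving out each library. GC slope as a term, library totals in place of TMM, omission of the deepest library and Ahr-/- against Ahr+/+ at 3 h within 1 identifier series were chosen after seeing the data.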

Additional observations from a re-analysis of the deposited data

Results flagged for a closer look

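In 160 groups of 4 libraries, 1 for each member and group, 5 held a library far from the other 3 by Dixon's test at the 95% level, where chance gives about 5% of groups. These libraries were replicate 1 of unactivated Ahr+/+ BMMs at 3 h for *Fos* (301.4 CPM), replicate 2 of unactivated Ahr-/- BMMs at 20 h for *Junb* (97.7 CPM), replicate 2 of Ahr+/+ BMMs with I3C and hk S.E. at 3 h for *Egr1* (14.4 CPM), replicate 3 of Ahr-/- BMMs with DMSO and hk S.E. at 20 h for *Egr2* (0.699 CPM) and replicate 3 of Ahr+/+ BMMs with I3C and hk S.E. at 3 h for *Atf3* (979.3 CPM).

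The effect of activation differed between groups in the following values, each past edgeR's adjusted p threshold as an interaction. Between genotypes at 20 h it differed for *Atf3* (-1.01, Ahr-/- minus Ahr+/+). Between times (20 h minus 3 h) it differed in Ahr+/+ for *Fos* (-1.83), *Fosl2* (1.00), *Egr1* (-2.04), *Egr2* (-4.21) and *Atf3* (-1.13). In Ahr-/- it differed for *Fos* (-2.16), *Fosl2* (1.44), *Junb* (-1.30), *Egr1* (-2.62), *Egr2* (-4.33) and *Atf3* (-1.95).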

How the results depend on the processing

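Over the 30 comparisons the members had 59 calls. No call changed direction under any alternative. DESeq2, median-of-ratios size factors and GC slope as a term lost 0 of 59 calls, a minimum count of 50 lost 0 of the 52 it could refit, limma and no filter lost 1 each, only the groups compared 3, identifier series as a term 6 and library totals 8. Leaving out each library in turn lost 4 calls, each named in the report with its libraries. The number of members called at 20 h against 3 h in unactivated Ahr-/- BMMs was 1, and it was 2 with DESeq2, library totals, a minimum count of 50, limma, GC slope as a term and a threshold of 0.05, where *Egr1* was added, and 0 with only the groups compared. It ranged from 1 to 2 on leaving out a library, with *Egr1* added without unactivated replicate 1 (0.84, adjusted p = 0.00907) or 2 (0.85, adjusted p = 0.00824) at 3 h. In unactivated Ahr+/+ it was 1, with a range of 0 to 1 on leaving out a library, and 0 with identifier series as a term. In DMSO-treated activated Ahr-/- it was 8, and 5 with identifier series as a term, 7 with a minimum count of 50, where *Fosl1* was not tested, and 9 with *Jun* added under the alternatives named in the report. For Ahr-/- against Ahr+/+ at 20 h with DMSO and hk S.E. it was 1, 2 with DESeq2, 4 with GC slope as a term (*Fos*, *Jun* and *Jund* added) and 4 at a threshold of 0.05. On leaving out a library it ranged from 1 to 2, with *Jund* added without Ahr+/+ replicate 3 (-0.98, adjusted p = 0.00987) or *Fos* without replicate 4 (-0.86, adjusted p = 0.00880). For the same contrast at 3 h it was 0, and 2 with GC slope as a term and at a threshold of 0.05 (*Jund* and *Egr2*). In unactivated cells at 3 h it was 0, and 1 with GC slope as a term (*Jun*). The cause of these changes was not tested. Omission of the deepest library is the omission of replicate 4 of unactivated Ahr+/+ BMMs at 20 h, whose loss of a call is given with *Jund*.

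With the replicate number as a block, 0 of 58 calls were lost. The members called for the difference of activation between genotypes at 20 h went from 1 to 2 (*Fos* added, -0.87, adjusted p = 0.00621), and those at 20 h against 3 h in unactivated Ahr-/- BMMs went from 1 to 2. The block also added *Jund* in activation of Ahr+/+ and *Egr2* in activation of Ahr-/- at 3 h (adjusted p = 0.00432 and 0.00539), *Fosl2* at 20 h against 3 h in activated Ahr+/+ (0.36, adjusted p = 0.00562) and *Jun* in the difference of activation between times in Ahr-/- (-0.49, adjusted p = 0.00269). Same-numbered libraries correlated from -0.211 to 0.643, and in unactivated Ahr-/- BMMs at 3 h replicate 1 ran against its number. Where the numbers pair the libraries, the block changed no call other than that of *Jun* given above.

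Sparse counts limit *Fosb*, *Fosl1* and, at 20 h of activation, *Egr2*.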
